A study of Sus scrofa with 35 samples.

Results

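The transcripts described here code for the subunits of the transcription factor NF-kappa-B and for its inhibitors, a list of 10 genes (NFKB1, NFKB2, REL, RELA, RELB, NFKBIA, NFKBIB, NFKBIE, NFKBIZ and TNFAIP3). A member was any non-control probe whose gene name in the scanner files equalled the symbol, and 8 of the 10 genes were found, out of 11274 genes with a symbol on the array. No probe carried the name REL or TNFAIP3. The 8 genes had 18 probes, of which 17 were in the authors' table of log2 intensities. Whole blood of 35 castrated male growing pigs was hybridised, 1 array per pig, in 6 groups of breed and climate. The breeds were Creole (CR, a tropical breed), Large White (LW, a European breed selected for growth) and their F1 cross. Thermoneutral (TN) pigs were kept at 24 °C, and heat-stressed (HS) pigs were labelled 30 °C, whereas the protocol text gave 32 °C for 5 days. Each group held 6 pigs except CR TN with 5. Per the study's methods, all TN pigs were slaughtered before the temperature was raised and all HS pigs after the exposure. Climate therefore cannot be told apart here from slaughter date, from age at slaughter or from the lower feed intake the study reports in heat. Blood was drawn into tubes that lyse the cells, so the RNA came from all blood cells together, red cell precursors included.

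NF-kappa-B is a dimer of Rel-family proteins that is held in the cytoplasm by I-kappa-B proteins until an I-kappa-B kinase marks them for degradation. The freed dimer enters the nucleus and drives genes of inflammation, cell survival and lymphocyte activation, and among those genes are several of its own subunits and inhibitors, which is the classical negative feedback of the pathway. In blood the pathway is best known in monocytes, neutrophils and lymphocytes.

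The probes of 60 bases were numbered within each gene by falling mean log2 intensity, and their sequences are shown for the genes on which the results turn, because probes of 1 gene did not always behave alike. For NFKB1, probes 1 and 2 overlapped by 54 bases, here in capitals, so they report on nearly the same stretch of the transcript.
NFKB1 1: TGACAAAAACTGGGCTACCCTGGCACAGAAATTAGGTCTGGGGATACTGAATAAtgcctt
NFKB1 2: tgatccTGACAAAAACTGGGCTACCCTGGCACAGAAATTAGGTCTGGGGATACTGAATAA
For RELA, probes 2, 3 and 4 are shown whole, with no part in capitals. Of RELA 1, a probe designed on a liver cDNA clone whose file description names no gene, the first 30 bases are shown.
RELA 1: gtgctgtcacatccccctgtgcctcttcct
RELA 2: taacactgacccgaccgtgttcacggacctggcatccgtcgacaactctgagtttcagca
RELA 3: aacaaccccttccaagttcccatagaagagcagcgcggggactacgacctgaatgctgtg
RELA 4: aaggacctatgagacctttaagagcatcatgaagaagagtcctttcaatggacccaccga
For NFKBIA, probe 1 is shown whole. Probes 3, 4 and 5 were 3 copies of a single sequence, of which the first 30 bases are shown, so the 17 probes held 15 distinct sequences.
NFKBIA 1: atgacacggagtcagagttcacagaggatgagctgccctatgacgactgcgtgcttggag
NFKBIA 3: cctgtcaaggtttgtgttaccctgctgtaa
In the files, NFKB1 1 to 3 are A_72_P146316, A_72_P278054 and O12055, NFKB2 1 is O9695, and RELA 1 to 4 are A_72_P269269, O9322, A_72_P541003 and A_72_P089326. NFKBIA 1 to 5 are A_72_P165846, A_72_P342398, A_72_P209997, O12168 and A_72_P600868, and the first probes of RELB, NFKBIB, NFKBIE and NFKBIZ are O12828, O7164, O9827 and A_72_P333618. No genome of the pig was used here, so the probes are given without coordinates.

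All 17 probes were well above background on all 35 arrays, and no spot was saturated. The probe left out of the authors' table, NFKBIZ 2, was well above background on 2 CR TN, 1 CR HS, 2 F1 TN, 3 F1 HS, 2 LW TN and 0 LW HS arrays, and was given no further value. Signal strength was not even between groups before normalization. The 75th percentile of the processed signal ran from 112 to 186 on the F1 TN arrays (median 152) and from 172 to 266 on the F1 HS arrays (median 250), and the median of the other 4 groups lay between 199 and 236. Lists of blood cell markers were in the table. The mean log2 intensity per pig ran from 10.03 to 13.37 for 10 neutrophil markers, from 8.94 to 10.14 for 11 T cell markers and from 9.21 to 12.48 for 14 erythroid markers.

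Heat stress went with higher transcript levels of several subunits and inhibitors. In the model with breed and climate, 9 of the 17 member probes were up-regulated in HS pigs and 1 was down-regulated at a limma adjusted p under 0.05, and 7 were not called. Over all 39072 probes, 20.1% were called up and 14.7% were called down. The called probes belonged to 5 of the 8 genes. NFKB1, NFKB2 and NFKBIE were up on every probe, RELA and NFKBIA had probes that disagreed, and RELB, NFKBIB and NFKBIZ had none that was called. The median log2 difference was 0.26 over the 17 probes and 0.06 over all probes, and 13 of the 17 differences were positive, as were 59.8% of all differences. Adding the mean of the erythroid markers to the model left 0 of the 17 probes called, and 2 of the whole table. Probes that share a gene are not independent of each other, so the counts describe the probes and not separate genes.

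**Figure D1:**
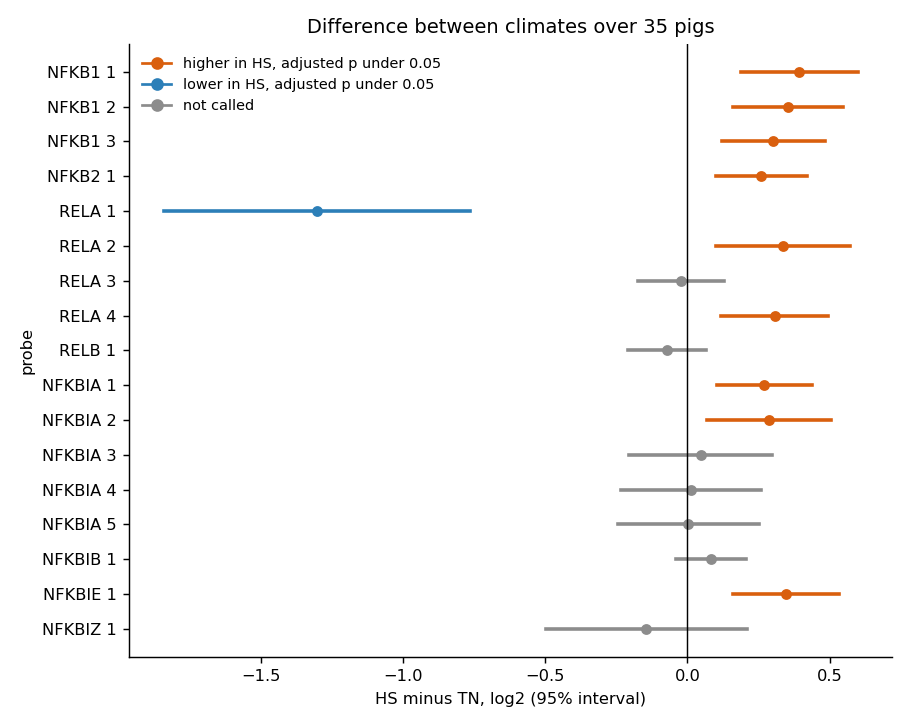
Difference between HS and TN pigs (log2, x axis) for each of the 17 member probes (y axis), as the fitted value and its 95% interval over 35 pigs. The intervals of 9 probes lie above 0 with an adjusted p under 0.05, RELA 1 lies alone at -1.30, and the 7 grey intervals include 0.

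NFKB1 encodes the precursor that is processed to a DNA-binding subunit and, unprocessed, acts as an inhibitor. On NFKB1 1 the 5 CR TN pigs were at 8.91, 9.32, 9.33, 9.36 and 9.68 log2 units, and the CR HS pigs ran from 9.42 to 10.09 with a median of 9.68. The F1 TN pigs ran from 8.60 to 9.80 (median 9.20) and the F1 HS pigs from 9.48 to 9.96 (median 9.75). The LW TN pigs ran from 9.12 to 9.77 (median 9.47) and the LW HS pigs from 9.23 to 9.95 (median 9.82). The climates overlapped in every breed, and 17 of the 18 HS pigs were above the TN mean of their own breed. The difference was 0.39 log2 units (SE 0.10, limma adjusted p = 0.00444), a 1.31-fold higher intensity. The overlapping probe NFKB1 2 gave 0.35 (SE 0.10, limma adjusted p = 0.00599). NFKB1 3, which shares no such stretch, gave 0.30 (SE 0.09, limma adjusted p = 0.0102). On that probe the F1 pigs did not overlap: the 6 HS pigs lay between 7.08 and 7.49 and the 6 TN pigs between 6.50 and 6.94.

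NFKB2 encodes the precursor of the subunit used by the non-canonical branch of the pathway. Its probe read 6.06, 6.31, 6.42, 6.52 and 6.58 in the CR TN pigs and from 6.11 to 6.91 (median 6.59) in the CR HS pigs. In F1 it ran from 5.66 to 6.53 (median 6.28) under TN and from 6.25 to 6.84 (median 6.57) under HS. In LW it ran from 6.10 to 6.38 (median 6.19) under TN and from 6.17 to 6.77 (median 6.42) under HS. The medians were higher in HS in each breed, with overlap in all of them, and 16 of 18 HS pigs exceeded the TN mean of their breed. The difference was 0.26 (SE 0.08, limma adjusted p = 0.0122).

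**Figure D2:**
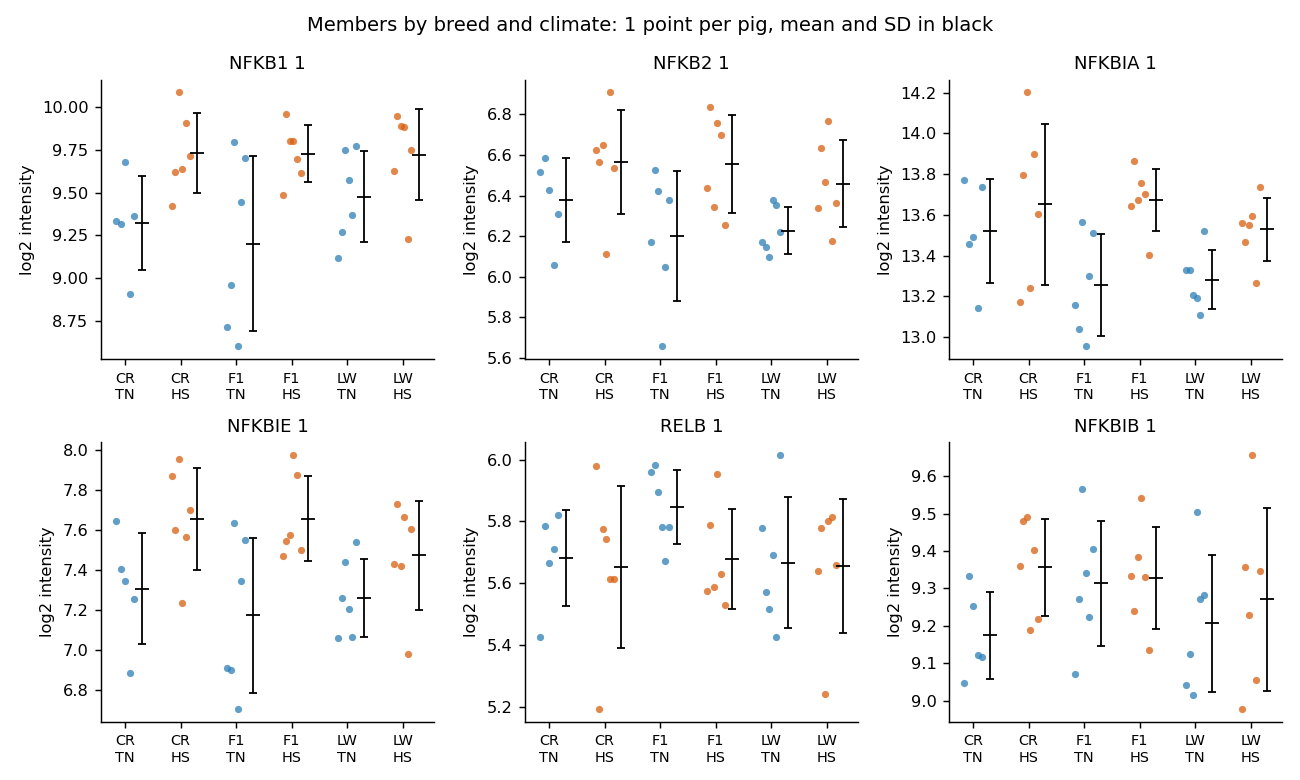
Log2 intensity (y axis) of 6 member probes in the 6 groups of breed and climate (x axis), 1 point per pig, with the group mean and SD in black. HS pigs sit higher than TN pigs for NFKB1 1, NFKB2 1, NFKBIA 1 and NFKBIE 1, with overlapping ranges, whereas RELB 1 and NFKBIB 1 were not called.

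RELA encodes p65, the transactivating subunit of the most common dimer, and its 4 probes did not agree. RELA 1 read 12.83, 13.66, 13.88, 14.15 and 14.32 in the CR TN pigs and from 11.34 to 14.42 (median 12.81) in the CR HS pigs. In F1 it ran from 14.14 to 15.03 (median 14.56) under TN and from 11.09 to 13.21 (median 12.60) under HS. In LW it ran from 13.45 to 14.68 (median 14.05) under TN and from 13.18 to 13.62 (median 13.36) under HS. The F1 groups were wholly apart, whereas the CR and LW groups overlapped. The probe was down-regulated in HS by -1.30 log2 units (SE 0.27, limma adjusted p = 0.00159), or to 0.406 of the TN intensity. This is the probe that stands for RELA under the rule of the highest mean intensity.

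RELA 2 gave the opposite direction. It read 7.40, 7.65, 7.84, 8.05 and 8.38 in the CR TN pigs and from 8.23 to 8.59 (median 8.36) in the CR HS pigs. In F1 it ran from 7.28 to 8.37 (median 7.93) under TN and from 8.02 to 8.82 (median 8.29) under HS. In LW it ran from 7.52 to 8.56 (median 8.10) under TN and from 7.73 to 8.40 (median 8.22) under HS. The CR groups overlapped only at the highest TN pig, and the LW groups overlapped almost throughout. RELA 2 was up-regulated by 0.34 (SE 0.12, limma adjusted p = 0.0242), and RELA 4 by 0.31 (SE 0.09, limma adjusted p = 0.0118). RELA 3 differed by -0.02 (95% interval -0.17 to 0.13, limma adjusted p = 0.829). After removal of the group means, RELA 2 and RELA 4 varied together over the 35 arrays (Pearson r = 0.86), whereas RELA 1 had r = -0.33 with RELA 2 and r = -0.31 with RELA 4. Averaging the 4 probes gave -0.17 (limma adjusted p = 0.0989 over 8897 genes), so no single direction can be given for RELA from these probes. RELA 1, whose file description names no gene, was the only probe of the 4 called down, while 2 of the others were called up and 1 was not called. Which of the probes reports the RELA transcript was not tested, since the files hold no alignment of the probes.

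RELB, the partner of the NFKB2 subunit in the non-canonical dimer, was not called. Its single probe lay between 5.19 and 6.02 in all pigs, with group medians from 5.61 to 5.84, and the climates overlapped in each breed, although 4 of the 6 F1 HS pigs lay below every F1 TN pig. The difference between climates was -0.07 (95% interval -0.21 to 0.07, limma adjusted p = 0.426).

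**Figure D3:**
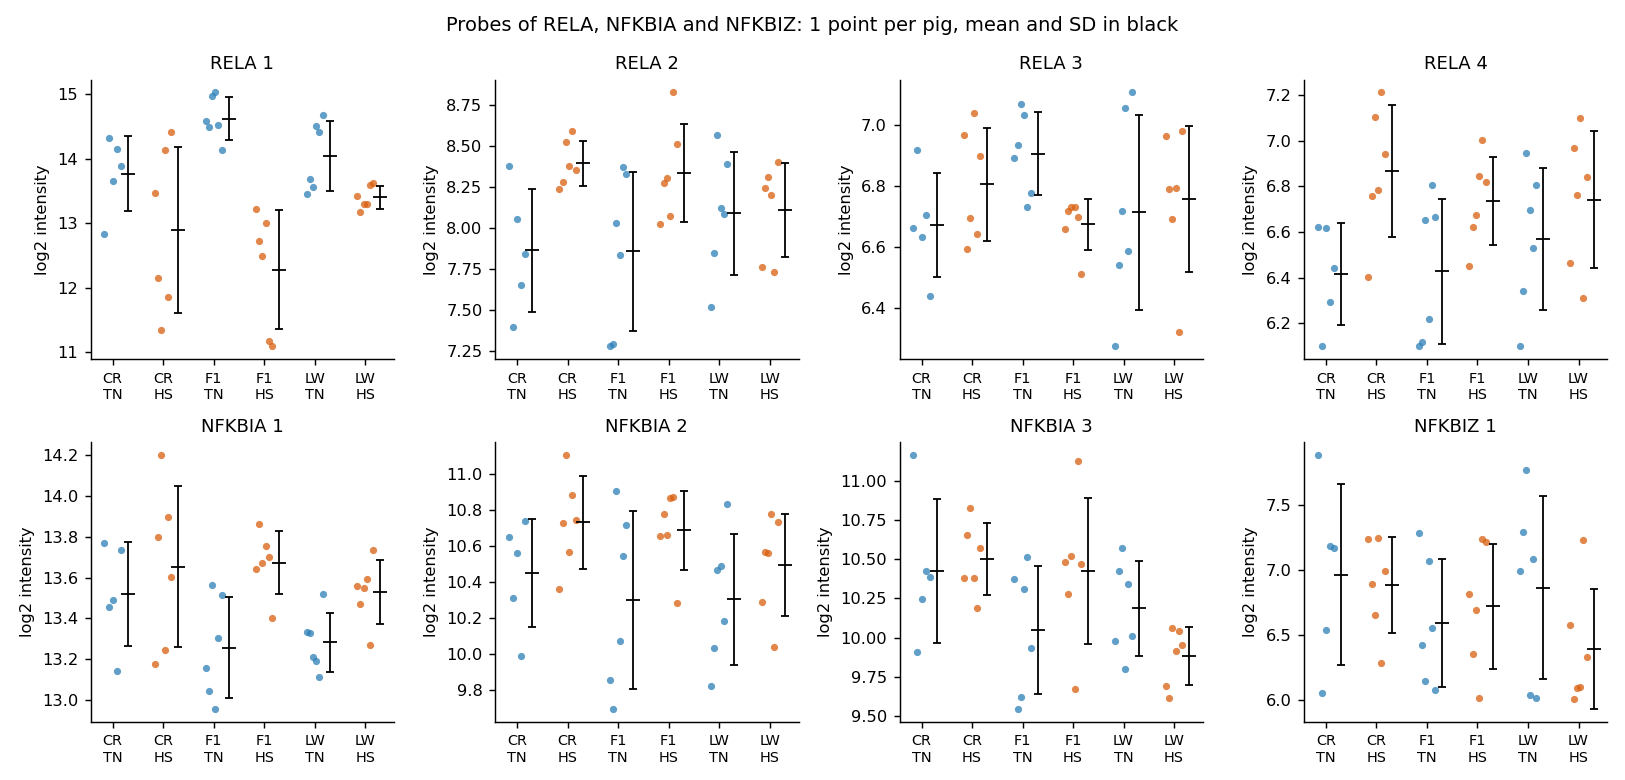
Log2 intensity (y axis) of the 4 RELA probes, 3 of the NFKBIA probes and NFKBIZ 1 in the 6 groups (x axis), 1 point per pig, with the group mean and SD in black. RELA 1 is lower in HS pigs and RELA 2 and RELA 4 are higher, and NFKBIA 3 is lower in the LW HS pigs than in the other groups by median.

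NFKBIA encodes I-kappa-B alpha, an inhibitor that NF-kappa-B itself induces. NFKBIA 1 read 13.14, 13.46, 13.49, 13.74 and 13.77 in the CR TN pigs and from 13.17 to 14.20 (median 13.70) in the CR HS pigs. In F1 it ran from 12.96 to 13.56 (median 13.23) under TN and from 13.40 to 13.86 (median 13.69) under HS. In LW it ran from 13.11 to 13.52 (median 13.27) under TN and from 13.27 to 13.74 (median 13.56) under HS. In F1, 5 of 6 HS pigs lay above every TN pig, and the ranges overlapped in each breed. The difference was 0.27 (SE 0.08, limma adjusted p = 0.0123). NFKBIA 2 gave 0.29 (SE 0.11, limma adjusted p = 0.0369), a call that was lost when any 1 of 14 of the 35 pigs was left out.

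The copies of the third NFKBIA sequence gave another result. Their differences between climates were 0.05, 0.01 and 0.00 for probes 3, 4 and 5, with 95% intervals from -0.20 to 0.30, from -0.23 to 0.26 and from -0.24 to 0.25. On NFKBIA 3 the medians were 10.12 in F1 TN and 10.48 in F1 HS pigs, but 10.17 in the LW pigs under TN and 9.93 in those under HS, and none of the 6 LW HS pigs was above the LW TN mean. The 3 copies followed each other over the 35 arrays after removal of the group means, with a Pearson r of 0.98 for each pair, while NFKBIA 1 and NFKBIA 2 had r = 0.74. The mean over all 5 probes differed by 0.12 between climates (limma adjusted p = 0.244 over 8897 genes), so the NFKBIA result depended on the probe.

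NFKBIE encodes I-kappa-B epsilon, an inhibitor abundant in lymphocytes and myeloid cells. Its probe read 6.88, 7.26, 7.34, 7.41 and 7.64 in the CR TN pigs and from 7.23 to 7.96 (median 7.65) in the CR HS pigs. In F1 it ran from 6.70 to 7.64 (median 7.12) under TN and from 7.47 to 7.97 (median 7.56) under HS. In LW it ran from 7.06 to 7.54 (median 7.23) under TN and from 6.98 to 7.73 (median 7.52) under HS. The ranges overlapped in each breed, with 16 of 18 HS pigs above the TN mean of their breed. The difference was 0.35 (SE 0.09, limma adjusted p = 0.00512).

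NFKBIB encodes I-kappa-B beta, which restrains the same dimers with slower turnover. It stayed between 8.98 and 9.66 in all pigs, and differed between climates by 0.08 (95% interval -0.04 to 0.21, limma adjusted p = 0.282). NFKBIZ encodes a nuclear I-kappa-B that modifies the choice of target genes. NFKBIZ 1 ran widely within groups, from 6.01 to 7.88 over all pigs, and the LW HS median was 6.22 against 7.04 in LW TN. Its difference over all breeds was -0.14 (95% interval -0.50 to 0.21, limma adjusted p = 0.535).

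Some probes without a member's name bore on the list by other routes. One, with the same 60 bases as NFKBIA 1, gave 0.28 (SE 0.08, limma adjusted p = 0.0103), close to the 0.27 of its named copy. Another with the sequence of the NFKBIE probe gave 0.35 (SE 0.10, limma adjusted p = 0.00786). The copy of the RELB probe gave -0.09 (limma adjusted p = 0.104). The last, described in the file only as a c-Rel proto-oncogene and named by no symbol, gave 0.16 (SE 0.07, limma adjusted p = 0.0727). These are repeat spots of member sequences or a described transcript, and were not counted as members.

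Within breeds, the calls came from the F1 pigs. In F1, 7 member probes were up-regulated (the 3 of NFKB1, NFKB2, NFKBIA 1, NFKBIE and RELA 2) and RELA 1 was down-regulated, where 20.8% of all probes were called up and 17.9% down. The F1 differences were 0.52 for NFKB1 1 (SE 0.17, limma adjusted p = 0.0186), 0.55 for NFKB1 3 (SE 0.15, limma adjusted p = 0.00461), 0.48 for NFKBIE (SE 0.16, limma adjusted p = 0.0165) and 0.42 for NFKBIA 1 (SE 0.14, limma adjusted p = 0.0195). RELA 1 differed by -2.35 in F1 (SE 0.41, limma adjusted p = 0.000211). Of the 17 probes, NFKB1 3 had all F1 HS pigs above all F1 TN pigs, as had 3.59% of all probes, and RELA 1 had all of them below, as had 8.08%. Nearest to the threshold in F1 were NFKB2 1 (0.35, limma adjusted p = 0.04) and RELA 2 (0.48, limma adjusted p = 0.0462). Their F1 results changed in 6 and 12 of the 35 fits that each left out 1 pig. The F1 calls leaned on single TN pigs, since 1 probe was called up without F1 TN replicate 4 and 3 without F1 TN replicate 1. With the erythroid mean as a covariate, 0 probes were called up in F1 and RELA 1 was still called down, and with the neutrophil mean 4 were called up. The F1 TN arrays also had the lowest median of the 75th percentile of signal among the 6 groups, and the part of signal strength in the F1 values was not tested.

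In CR and in LW no member probe was called, and 0% of all probes were called in either breed (3466 and 3404 probes had an unadjusted limma p under 0.05). The CR differences were 0.41 for NFKB1 1, 0.53 for RELA 2, 0.45 for RELA 4, 0.35 for NFKBIE and -0.87 for RELA 1, each with an unadjusted limma p between 0.0105 and 0.0487. The LW differences were 0.25 for NFKB1 1, 0.21 for NFKBIE, 0.25 for NFKBIA 1 and -0.65 for RELA 1, and none of the 17 LW probes had an unadjusted limma p under 0.05. Whether the breeds differed in their response was tested directly. The interaction of breed and climate was called for 0% of all probes, of which 5807 had an unadjusted limma p under 0.05. Among the members, RELA 1 came lowest (limma adjusted p = 0.278). The climate difference of RELA 1 in F1 differed from that in LW by -1.70 log2 units (95% interval -2.87 to -0.53, limma adjusted p = 0.122) and from that in CR by -1.47 (95% interval -2.67 to -0.27, limma adjusted p = 0.398). For F1 against LW, 4 of the 17 probes had an unadjusted limma p under 0.05, as had 22.7% of all probes. The climate difference of NFKB1 1 in F1 exceeded that in LW by 0.28 (95% interval -0.22 to 0.78), and that of NFKBIA 3 by 0.68 (95% interval 0.11 to 1.26, limma adjusted p = 0.158). No difference between breeds in response passed the threshold for a member, and the intervals include differences as large as the effects themselves.

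**Figure D4:**
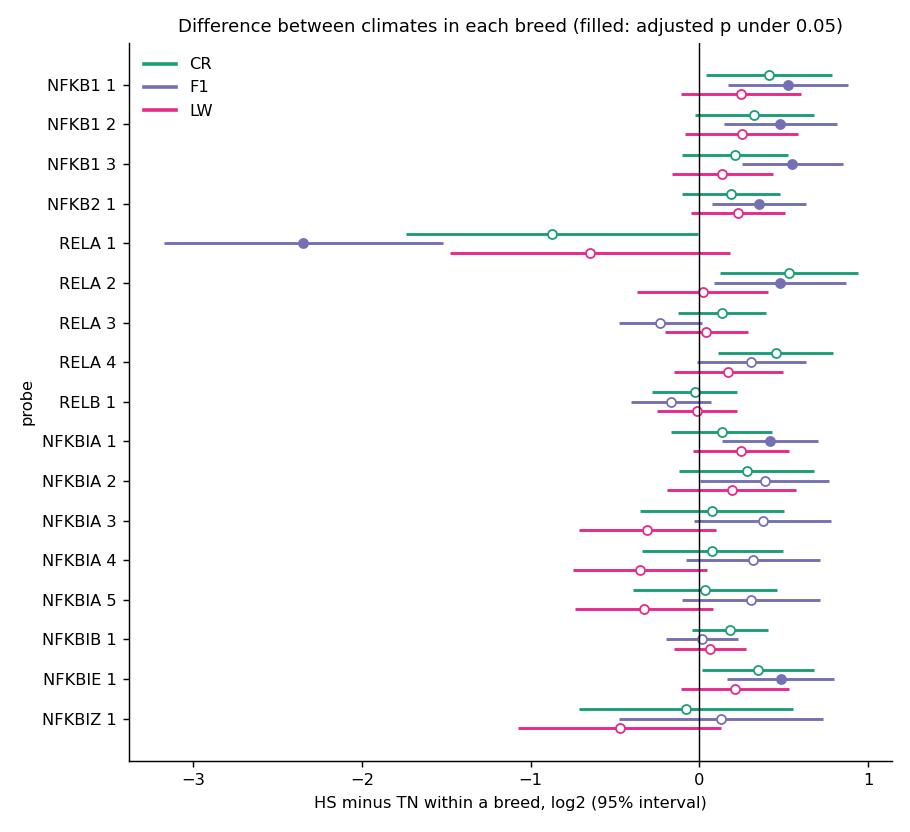
Difference between HS and TN pigs within CR, F1 and LW (log2, x axis) for each of the 17 member probes (y axis), as fitted values with 95% intervals. Filled points, in F1 alone, have an adjusted p under 0.05, and the 3 breeds lie on the same side of 0 for each of the 10 probes called over all breeds.

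Between breeds, no member probe passed the threshold. With climate in the model, 0 of 17 probes were called in CR against LW (background 1.08%), in F1 against CR (0.184%), in F1 against LW (0.0256%) or in F1 against the mean of the parental breeds (0.0717%). In CR against LW, 3 of the 17 had an unadjusted limma p under 0.05, as had 3950 of all 39072 probes. The 3 member probes were the copies of the third NFKBIA sequence, which is 1 of the 15 distinct sequences. These copies were higher in CR by 0.43, 0.42 and 0.40 (limma adjusted p = 0.218, 0.223 and 0.273). Their 95% intervals lay above 0 (for NFKBIA 3 from 0.12 to 0.74), and with array weights all 3 were called. NFKB1 1 differed between CR and LW by -0.07 and NFKBIE by 0.11, both with standard errors above their value or near it (0.12 and 0.11). The F1 pigs departed from the mean of the parental breeds by -0.12 to 0.10 on the 17 probes.

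Markers of blood cells moved with climate beside the members. Of 14 erythroid markers in the table (6 more of the list were not in it), 7 were down-regulated in HS and 1 was up-regulated, with a median difference of -0.70. Over all probes, 14.7% were called down and 20.1% up. The erythroid mean per pig ran from 10.39 to 12.48 in F1 TN and from 9.21 to 10.95 in F1 HS, from 10.17 to 11.66 in CR TN and from 9.67 to 11.35 in CR HS, and from 10.71 to 11.62 in LW TN and from 10.04 to 11.21 in LW HS. After removal of the group means, NFKB1 1, NFKBIE 1 and NFKB2 1 fell as the erythroid mean rose over the 35 arrays (Pearson r = -0.58, -0.61 and -0.69), and RELA 1 rose with it (r = 0.47). Other lists gave values as far from 0, among them r = -0.695 for NFKB2 1 with the neutrophil mean, and with the T cell mean r = 0.66 for RELA 4, 0.60 for RELA 2 and -0.54 for RELA 1. These points share an array and its normalization, so the values are a description. With the erythroid mean as a covariate, the climate difference of NFKB1 1 was 0.18 (limma adjusted p = 0.311), that of NFKBIE 0.15 (limma adjusted p = 0.358) and that of RELA 1 -0.79 (limma adjusted p = 0.152). Fewer red cell precursors and less RNA in each cannot be told apart in bulk blood.

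**Figure D5:**
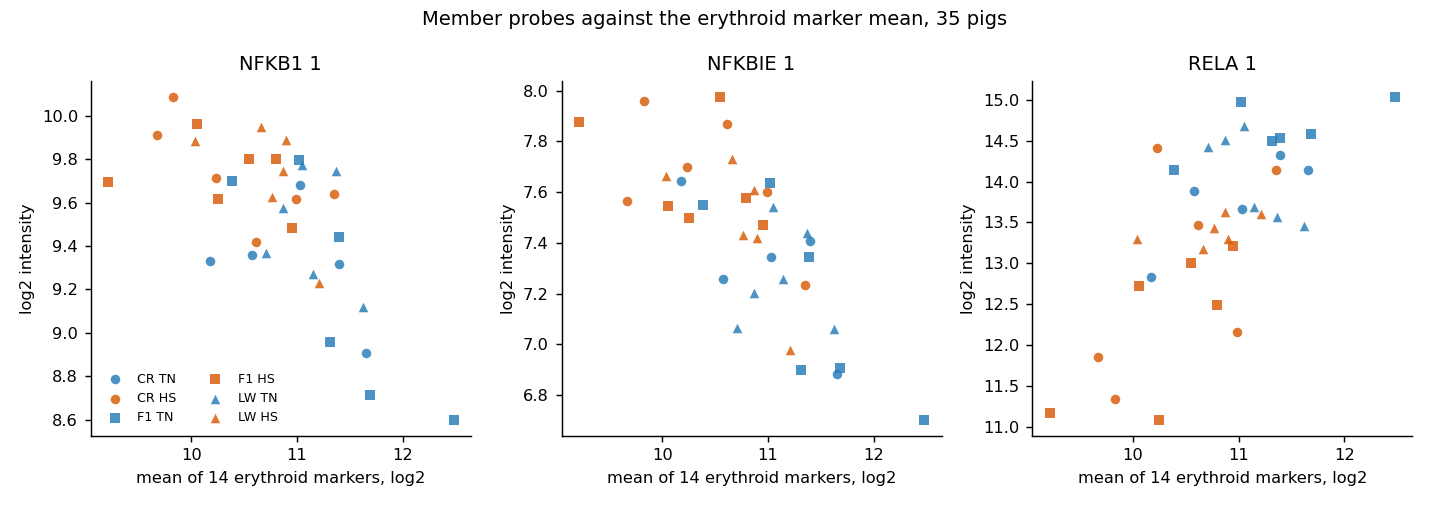
Log2 intensity (y axis) of NFKB1 1, NFKBIE 1 and RELA 1 against the mean log2 intensity of 14 erythroid markers (x axis), 1 point per pig, coloured by climate and shaped by breed. The HS pigs lie toward lower erythroid means, and NFKB1 1 and NFKBIE 1 are higher and RELA 1 is lower at that end.

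The markers of other cell types were read in the same way. Of 10 neutrophil markers 1 was down-regulated in HS (ARG1, by -1.52) and the list had a median difference of -0.47. The neutrophil mean per pig ran from 10.48 to 13.37 in CR TN and from 10.69 to 13.20 in CR HS, from 10.75 to 13.24 in F1 TN and from 10.03 to 12.71 in F1 HS, and from 11.34 to 12.88 in LW TN and from 10.60 to 12.48 in LW HS. These ranges overlapped in each breed. With the neutrophil mean as a covariate, NFKBIA 2 (limma adjusted p = 0.111) and RELA 2 (limma adjusted p = 0.0757) were no longer called. Of 7 B cell markers 3 were up-regulated (median 0.28), of 11 T cell markers 3 (median 0.15) and of 8 monocyte markers 3 (median 0.16). For the monocyte marker FCN1, counted as up, 1 of its 2 probes was called up and 1 was called down. Of 8 cytotoxic cell markers 2 were down-regulated, and of 6 platelet markers 0 were called. The shares over all probes were 20.1% up and 14.7% down. The part of cell composition in the member values was not tested beyond these covariates.

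The rest of the pathway was read from 4 lists, each gene by its probe of the highest mean. Over all probes, 20.1% were called up and 14.7% down, and the counts of each list stand beside these shares. Of 12 genes of the pathway's kinases and their partner proteins in the table, 6 were up-regulated, 0 down-regulated and 6 not called, with a median of 0.17. The largest differences were those of IKBKE, an I-kappa-B kinase-related enzyme, at 0.43 (limma adjusted p = 0.00378), and MAP3K8 at 0.31. They were followed by TANK, which binds IKBKE, at 0.28 (1 of its 2 probes called), and TAB1, a partner of the kinase TAK1, at 0.27. Of 15 adaptors and ubiquitin ligases, 8 were up-regulated and 5 down-regulated. MYD88, the adaptor of Toll-like receptors, fell by 0.66 (limma adjusted p = 0.00159) and IRAK1, the kinase it recruits, by 0.44. BIRC2, a ubiquitin ligase of the TNF receptor complex, fell by 0.42, while RIPK1, the scaffold kinase of that complex, was higher by 0.37. For MYD88, 2 of its 3 probes were not called.

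Of 13 other inhibitors and negative regulators, 3 were up-regulated and 5 down-regulated, with a median of 0.01. The largest differences were those of TAX1BP1 (-0.94, limma adjusted p = 0.00597) and ITCH (-0.52, limma adjusted p = 0.0338), both partners of the TNFAIP3 protein, followed by RNF11 (-0.37), a further partner, and USP21 (-0.35). For ITCH, 1 of its 2 probes was called. Of 29 known target genes, 7 were up-regulated and 3 down-regulated, but 4 of the 7 were the members NFKBIA, NFKB1, NFKB2 and NFKBIE. Without the 6 members of that list, 3 of 23 were up-regulated (CD40 at 0.34, CD83 at 0.26 and JUNB at 0.19), 3 were down-regulated (BCL2L1 at -0.80, CCL20 at -0.75 and IL1A at -0.23), and 17 were not called, with a median of -0.01. For BCL2L1 and for CCL20, 1 of 2 probes was called down, and for IL1A 2 of 3. The cytokine and chemokine targets TNF (-0.20, limma adjusted p = 0.0953), IL1B (-0.15, limma adjusted p = 0.45) and CXCL8 (-0.14, limma adjusted p = 0.317) were among those not called. For TNF, 1 of its 3 probes was called down over all breeds. In F1 the TNF probe shown differed by -0.53 (limma adjusted p = 0.00829). Beside these counts, 20.1% of all probes were called up and 14.7% down. The targets in these counts were named after their values were seen.

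The genes most like each member were found by Pearson r of the deviations from the group means over 35 arrays, a description that says nothing of function. NFKB1 1 was closest to DEF6 (r = 0.91), VPS41 (0.91) and RHOG (0.90), NFKB2 1 to IPO13 (0.88), VARS (0.83) and UNC45A (0.82), and RELB 1 to TNNT3 (0.77), QTRT1 (0.76) and MAP3K6 (0.76). NFKBIA 1 was closest to POU2F1 (0.81), C2ORF68 (0.78) and CBL (0.77), NFKBIB 1 to AKR1B1 (0.81), SIRT2 (0.79) and MRPS18A (0.78), NFKBIE 1 to ADGRE5 (0.88), TAP2 (0.88) and GADD45B (0.87), and NFKBIZ 1 to SP3 (0.95), LYPLA1 (0.94) and FMR1 (0.93). RELA 1 had the closest matches, with r = 0.996 for SUSD2, 0.995 for CNGA2 and 0.992 for PITPNM2, whereas RELA 2 was closest to CLK3 (0.91) and RELA 4 to KDM2A (0.92). Among the members, NFKBIZ 1 followed NFKBIA 3 (r = 0.71). Among the 9 probes called up, r ran from 0.08 between NFKB2 1 and RELA 2 to 0.92 between the overlapping NFKB1 1 and NFKB1 2, with 0.75 between NFKB1 1 and NFKBIE 1 and 0.23 between NFKB1 3 and RELA 2.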

How the data were processed

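Whole-blood RNA of 35 pigs was hybridised on custom porcine 1-colour arrays on 5 slides, and per the labels the images were read with Agilent Feature Extraction 10.10.1.1. Values are the deposited log2 table of the authors (39072 probes, quantile-normalized intensities). Deposited gMedianSignal, gMeanSignal and gProcessedSignal intensities from the scanner files served the alternatives, and the table recomputed from gMedianSignal matched the deposited one (Pearson r = 0.99997, median absolute difference 0.0235 log2). Background calls are those of the scanner files.

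Differences were tested with limma 3.58.1 (lmFit, eBayes, two-sided, Benjamini-Hochberg over all 39072 probes, threshold 0.05) in R 4.3.3. HS minus TN and breed contrasts were fitted with breed and climate as additive terms, and within-breed differences and the interaction from 6 group means. The script was tested on simulated data. The random effects of the study's model (pen, slaughter day, parents) have no labels and could not be fitted. The p-values here treat the 35 pigs as independent, and pigs that shared a pen or a slaughter day can make them too small. Per the study's methods, litters lay within a breed and were spread over pens of both climates. Shared parents can thus make p-values between breeds too small, whereas for HS minus TN they can act the other way. The fit called 13601 of the 39072 probes in HS minus TN, far more than the study reports for blood from its mixed model. The number of arrays also limits the precision.

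All 10 members were named, and the 8 with a probe were each represented by the one of highest mean log2, with other probes counted and named where they disagreed. From each list at most 4 called genes of the largest difference were named, and further ones are marked in the text. The members and lists were chosen with earlier results of these data known. Alternatives were filters, 75th-percentile scaling, normexp (offset 50), array weights, slide as a block, marker covariates, leaving out pigs and averaging probes.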

Additional observations from a re-analysis of the deposited data

Results flagged for a closer look

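Dixon's 95% test was run on 102 groups (17 probes in 6 groups), where chance flags about 5%, and 3 groups (2.94%) held a pig far from the others. On NFKBIA 2, F1 HS replicate 6 was at 10.29, with the other 5 pigs between 10.66 and 10.87. On RELA 3 the same pig was at 6.51, with the other 5 between 6.66 and 6.73. On RELB 1, LW HS replicate 3 was at 5.24, with the other 5 between 5.64 and 5.82. None of these values was left out of the fits above.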

How the results depend on the processing

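Under 8 alternatives of values, filter, scaling, weights and slide, 8 to 9 member probes were up-regulated and 1 was down-regulated in HS, and in F1 5 to 8 were up-regulated and 1 was down-regulated. With the erythroid covariate the counts in HS against TN fell to 0 up and 0 down, and in F1 to 0 up and 1 down (673 up and 2241 down over the whole table), while the neutrophil covariate left 4 up in F1. Without the F1 pigs 0 member probes were called up and 0 down, as was the whole table (6845 probes had an unadjusted limma p under 0.05). Array weights called 3 probes in CR against LW, the copies of the third NFKBIA sequence. Leaving out each pig in turn gave 8 to 9 probes up and 1 down in HS against TN, and 1 to 8 up and 1 down in F1. No called difference changed sign in any alternative that was run. Within each of the 5 slides, the HS mean exceeded the TN mean for each of the 9 up-regulated probes, and RELA 1 was lower in HS in all 5. Breeds were not balanced within the slides. Slide 5 held 2 HS pigs, of CR and F1, and 2 TN pigs, both of LW, so breed and climate cannot be told apart there. The smallest difference among the up-regulated probes was 0.008, for NFKBIA 2 on slide 5. The scan times coincide with the slides, so no separate scan block was run. TN and HS pigs were different animals. The study placed littermates in both climates, but the labels give no litter, so littermates could not be matched.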
